A study of Mus musculus with 5 samples.

Results

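The genes described here had reads in every Suz12 knockout library of Langerhans cells and almost none in wild type libraries. A gene was taken when it had at least 10 counts in each of the 3 knockout libraries and at most 3 counts over both wild type libraries. Of 27179 genes in the table, 85 met these limits. Of these, 2 lie on the X or Y chromosome and 4 had been set aside by name, which left 79 members. They made up 1.38% of the 5717 genes off the X and Y chromosomes that had at least 10 counts in each knockout library. The counts of these same 5 libraries chose the members, so their levels and their difference between genotypes are given as a description and were not tested.

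Langerhans cells are resident phagocytes of the epidermis that take up antigen and carry it to lymph nodes. Mice were C57BL/6 and 1 week old when their skin was taken, and each library was made from polyadenylated RNA of 5000 purified cells. The groups were Suz12 cKO, a conditional knockout (3 biological replicates, written cKO), and wild type (2 biological replicates, written WT). The cell type in which Suz12 was deleted is not given in the sources used here. The source label of all 5 libraries names alveolar macrophages, whereas titles, tissue and protocol name Langerhans cells of skin.

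The product of Suz12 belongs to the core of Polycomb repressive complex 2 (PRC2), which places methyl groups on lysine 27 of histone H3 and keeps many developmental genes silent. Genes silenced in this way often have promoters rich in CpG dinucleotides, and the cell cycle inhibitor locus Cdkn2a is a textbook example. A gene that is silent in wild type cells and active when PRC2 is lost would be seen in cKO libraries alone. The comparison therefore asks which genes show such a pattern of detection.

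Counts assigned to genes came to between 12090062 and 25725900 per cKO library, and to 18656968 and 17041996 in WT libraries. All levels are CPM, counts per 1000000 after TMM normalisation of the library sizes, and 3 counts over both WT libraries correspond to 0.0837 CPM. Suz12 had 0, 0 and 7 counts in cKO replicates 1 to 3, against 88 and 39 counts in WT replicates 1 and 2 (edgeR adjusted p = 0.999). The 8 Langerhans cell markers summed to between 74104 and 82808 CPM in cKO and to 81821 and 65393 CPM in WT. Most of each sum came from Cd74 and H2-Aa. Cd207 lay at 14600, 6639 and 8393 CPM in cKO, against 7584 and 7417 CPM in WT. Of the 8, only Mfge8 lay above both WT libraries in every cKO library, and none lay below both in every cKO library. Markers of T cells summed to 792, 323 and 255 CPM in cKO and 676 and 505 CPM in WT, and those of melanocytes to 49.9, 33.1 and 145 CPM in cKO and 39.6 and 429 CPM in WT. Markers of neutrophils summed to 240, 536 and 255 CPM in cKO and 170 and 185 CPM in WT, nearly all of it from Mmp9, and 6 of the 10 had no count. No member was a marker of any cell type checked. Of 8 alveolar macrophage markers, 5 had no count in any library, among them Siglecf, Car4 and Chil3. The 8 summed to 248, 162 and 365 CPM in cKO and to 688 and 213 CPM in WT. Ear2 lay at 70.7, 63.8 and 250 CPM in cKO, against 466 and 122 CPM in WT. Krt79, also on the keratinocyte list, lay at 177, 98.2 and 115 CPM in cKO, against 176 and 91.3 CPM in WT. Marco had 45.7 and 0.118 CPM in WT replicates 1 and 2 and no count in cKO.

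The number of such genes was not high for these libraries. The same limits were applied to each of the other 9 ways to choose 2 of the 5 libraries as the low ones, with the same exclusions. They gave between 63 and 177 genes, with a median of 103. The genotype labels gave 79, the third lowest of the 10 counts, with 7 other choices above it and 2 below. As a share of the genes with at least 10 counts in each of the 3 remaining libraries, the other choices gave between 1.13% and 2.81%. With cKO replicates 1 and 3 as the low libraries the count was 177, and with cKO replicate 2 and WT replicate 2 it was 63. Where WT replicate 2 and cKO replicate 3 were the low libraries, which are those whose titles spell out the cell name, 109 genes met the limits. These counts are a description of the libraries and carry no test.

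**Figure D1:**
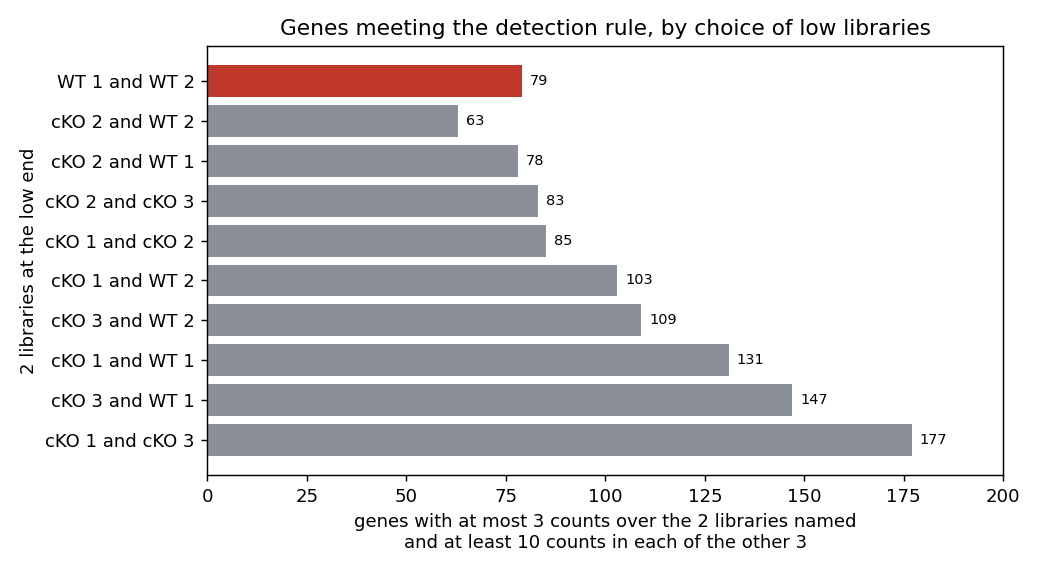
The bars give the number of genes with at most 3 counts over the 2 libraries named on the vertical axis and at least 10 counts in each of the other 3. The choice that follows the genotype (red, top) holds 79 genes, and the other 9 choices (grey) hold 63 to 177.

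In the cKO libraries the 79 genes were of moderate to low abundance. Their mean level over the 3 cKO libraries had a median of 11.3 CPM and ran from 1.23 CPM for Mthfd2l to 34.8 CPM for Rfwd3. The 5717 genes with at least 10 counts in each cKO library had a median of 43.2 CPM. Per length, the medians were 4.12 CPM per kb of gene for the members and 20.2 CPM per kb for those 5717 genes. Together the members summed to 1055, 955 and 1019 CPM in cKO replicates 1 to 3, against 0.847 and 0.707 CPM in WT replicates 1 and 2. No count at all was seen in WT for 62 members, 1 count for 9, 2 counts for 5 and 3 counts for 3. Of the 17 members with a WT count, 9 had it in WT replicate 1 alone, 7 in WT replicate 2 alone and 1 in both.

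**Figure D2:**
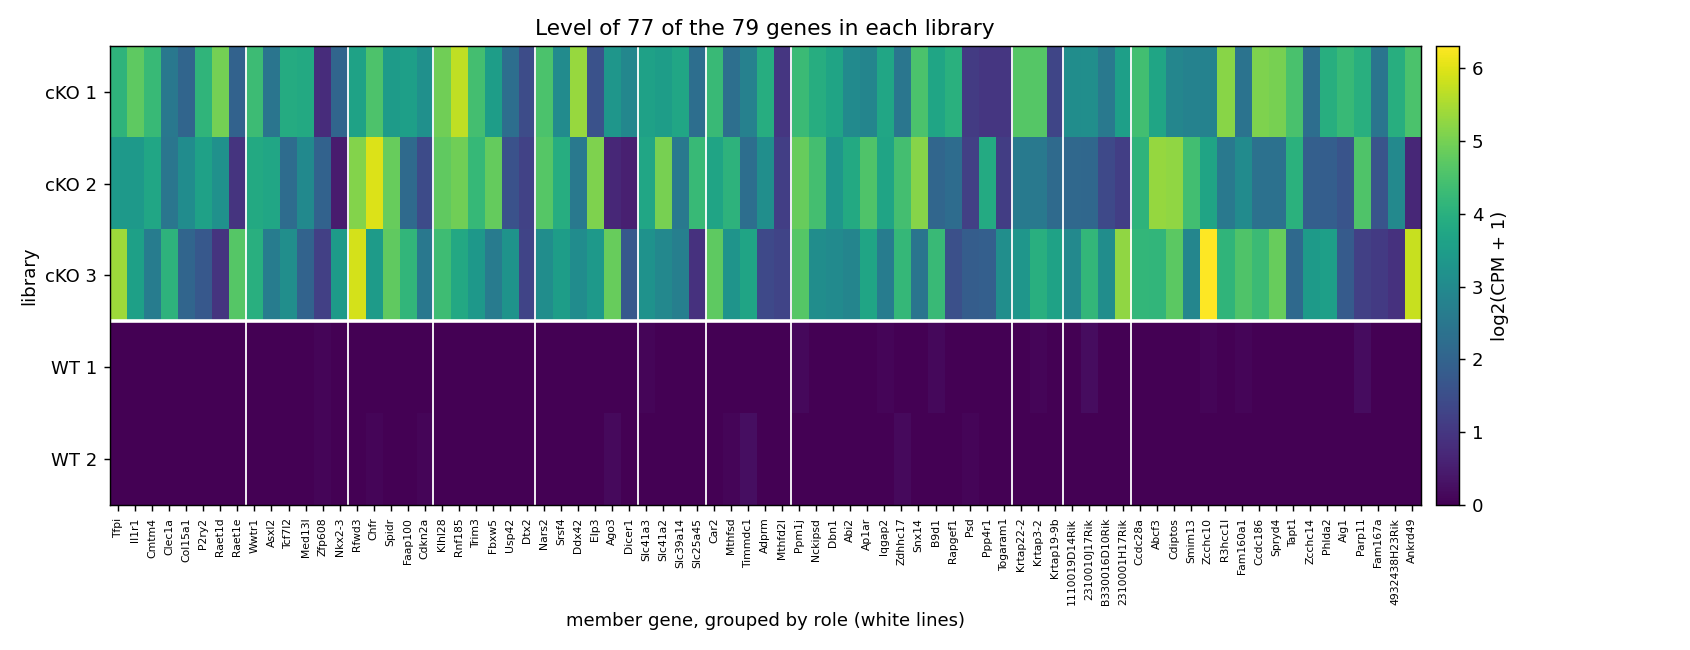
Colour gives the level, as log2(CPM + 1), of 77 of the 79 genes (columns, grouped by role between white lines) in the 3 cKO libraries (upper rows) and the 2 WT libraries (lower rows). All genes shown are above 0 in the cKO rows at uneven levels, and the WT rows are at or close to 0.

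Levels of the members differed among the cKO libraries. The ratio of the highest to the lowest cKO library had a median of 4.50, from 1.25 for Ccdc28a to 84.9 for Ankrd49. Over the 5717 genes, which lay at higher levels, its median was 2.43. Over the 857 of these genes whose mean level fell inside the interquartile range of the members, from 7.46 to 17.5 CPM, it was 3.43. In 10 members the 3 cKO libraries lay within a factor of 2, and in 13 members they were at least 10-fold apart. The lowest library was cKO replicate 2 for 33 members, cKO replicate 3 for 25 and cKO replicate 1 for 21. Ankrd49, an ankyrin repeat protein, had 22.1, 0.637 and 54.1 CPM in cKO replicates 1 to 3 and no count in WT. A mean over cKO therefore says little about any 1 library for such genes.

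**Figure D3:**
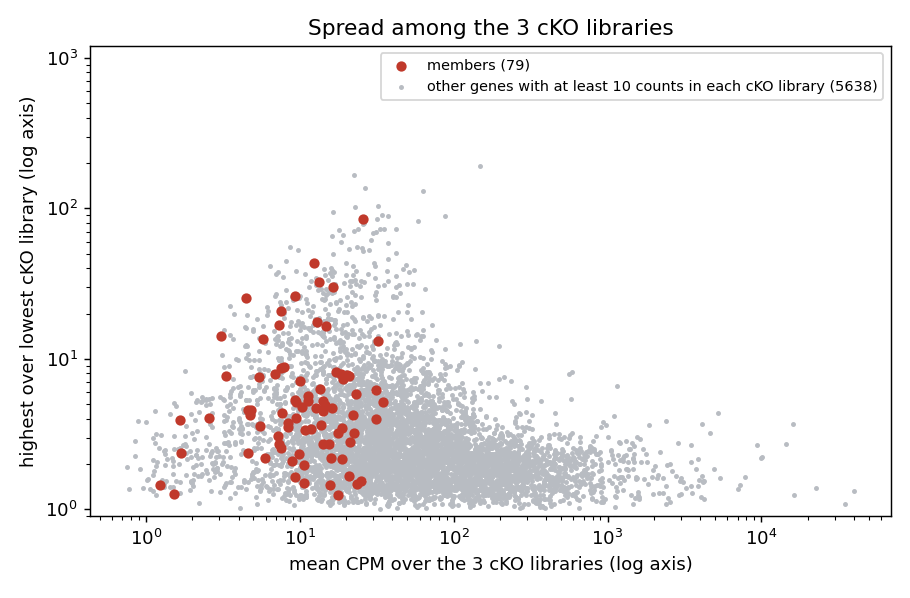
Each point is a gene with at least 10 counts in every cKO library, placed by its mean CPM over the 3 cKO libraries (horizontal, log axis) and by the ratio of its highest to its lowest cKO library (vertical, log axis). The 79 members (red) lie at 1.23 to 34.8 CPM and spread over ratios from 1.25 to 84.9, among the other genes at that level (grey).

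Klhl28 had the highest level in its lowest cKO library. It encodes a kelch protein of the family that brings substrates to cullin ubiquitin ligases (chromosome 12, 64941486 to 64965581, mm10). It lay at 29.6, 26.3 and 19.3 CPM in cKO replicates 1 to 3 and had no count in WT. Its pooled cKO level was at least 308-fold higher than the floor of 3 counts over both WT libraries. Next to it lies Togaram1, which encodes a microtubule-binding protein of the cilium (chromosome 12, 64965576 to 65022573). Togaram1 had 1.001, 1.20 and 7.73 CPM in cKO and no count in WT. The 2 genes run in opposite directions from overlapping starts, and whether counting used strand is not stated in the sources at hand. Reads at the shared end cannot be assigned to one of them. Their RefSeq promoter windows, of 250 bases before and 50 after the start on GRCm38.p6, share 295 bases on opposite strands. The window of Klhl28 is shown because it serves both members. It lies at chr12:64965487-64965786 on the minus strand and holds 18 CG dinucleotides, printed in capitals.
Klhl28: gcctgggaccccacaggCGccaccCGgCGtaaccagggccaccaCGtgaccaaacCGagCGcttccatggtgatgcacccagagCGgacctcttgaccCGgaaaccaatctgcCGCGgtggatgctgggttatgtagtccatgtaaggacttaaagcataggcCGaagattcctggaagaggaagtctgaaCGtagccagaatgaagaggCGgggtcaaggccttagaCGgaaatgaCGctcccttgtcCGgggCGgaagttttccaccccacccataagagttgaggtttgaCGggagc
On either strand it also holds the motif CCAAT, the motif GGGCGG and the motif CACGTG.

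Of the members that act in the ubiquitin pathway, 6 are given first, and the ligases Rfwd3 and Chfr stand with the cell cycle and DNA repair genes. Rnf185, an E3 ligase of protein degradation at the endoplasmic reticulum, lay at 51.3, 29.8 and 12.96 CPM in cKO and had no count in WT. Trim3, also an E3 ligase, lay at 20.5, 17.8 and 9.27 CPM in cKO, again with none in WT. The libraries of Rnf185 were 3.96-fold apart and those of Trim3 2.21-fold. Fbxw5, an F-box protein, lay at 10.4, 27.1 and 5.15 CPM, and Usp42, a deubiquitinase, at 3.82, 2.02 and 8.50 CPM in cKO, with no count in WT for either. Dtx2, a ligase linked to Notch signalling, was low but even, at 1.75, 1.38 and 1.46 CPM in cKO and no count in WT. In the list of ubiquitin ligases and deubiquitinases, which holds neither Rfwd3, Chfr nor Dtx2, 106 genes had at least 10 counts in each cKO library and 5 of them, or 4.72%, were members, against 1.38% of all genes at that level. Of its 218 genes with enough counts to test, which include the 5 members, 120 lay higher and 98 lower in cKO. The median log2 fold change of the 218 was 0.10, against 0.06 over all 9988 tested genes.

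Among regulators of transcription and chromatin, Wwtr1 was the most even. Wwtr1, the Hippo pathway coactivator known as Taz, lay at 19.2, 13.2 and 14.7 CPM in cKO and had none in WT. Of the 6 Yap, Taz and Tead genes in the table, which act together, it was the only one with a count in any library. Tcf7l2, a transcription factor of Wnt signalling, lay at 13.7, 3.68 and 7.73 CPM in cKO, and its relative Tcf7 had counts in WT replicate 1 alone. Asxl2, a partner of the deubiquitinase Bap1 in the complex that removes ubiquitin from histone H2A, lay at 4.51, 12.2 and 5.32 CPM in cKO and had no count in WT. Its relative Asxl1 was seen at 0.248 CPM in cKO replicate 2 and at 2.43 CPM in WT replicate 1, with no count elsewhere. Med13l, of the Mediator kinase module, lay at 13.1, 6.90 and 3.00 CPM in cKO. Of 71 genes of the chromatin modifier list with at least 10 counts in each cKO library, Asxl2 was the 1 member (1.41%). Of 65 in the zinc finger list Zfp608 was the 1 member (1.54%). Over all genes at that level the share was 1.38%. Zfp608 lay at 0.751, 2.94 and 1.29 CPM in cKO with 1 count in each WT library.

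Genes known as developmental targets of PRC2 were mostly absent from these cells. Of 190 such regulators in the table, 6 had at least 10 counts in each cKO library, and 2 of these (33.3%) were members, Cdkn2a and Nkx2-3, against 1.38% of all genes at that level. In all 15 were tested, of which 11 lay higher and 4 lower in cKO, against 5246 higher and 4742 lower over all tested genes. The median log2 fold change of the 15 was 1.09, against 0.06 over all tested genes, and edgeR called none of them. These 15 include Cdkn2a and Nkx2-3, which were chosen for being higher in cKO. The tally and the median therefore restate that choice in part, and nothing is read from them. Cdkn2a, which encodes the Ink4a and Arf proteins that halt the cell cycle (chromosome 4, 89274473 to 89294619), had 127, 49 and 56 counts in cKO, against 0 and 1 count in WT. Its level was 7.95, 1.73 and 4.81 CPM in cKO replicates 1 to 3 and 0 and 0.0590 CPM in WT replicates 1 and 2. The ratio of pooled levels was 149, with a 95% counting interval from 26.5 to 5906. A high ratio follows from the limit on WT counts that chose the members. The neighbouring gene Cdkn2b lay at 0.250, 18.4 and 10.6 CPM in cKO with none in WT, and its 4 counts in cKO replicate 1 kept it out. Cdkn2c went the other way, with 0, 1 and 32 counts in cKO, against 598 and 11 counts in WT. Nkx2-3, a homeobox factor of gut and spleen development (chromosome 19, 43612325 to 43615892), had 50, 11 and 115 counts in cKO and none in WT. At 3.13, 0.389 and 9.87 CPM in cKO it was the member with the lowest level in any cKO library.

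The promoters of these 2 members are shown because PRC2 targets are known for CpG-rich starts. Cdkn2a has 2 windows, at chr4:89294570-89294869 for the upstream start used by Arf and at chr4:89282143-89282442 for the downstream start used by Ink4a, both on the minus strand. That of Nkx2-3 lies at chr19:43612075-43612374 on the plus strand. Capitals mark CG dinucleotides, of which there are 45, 12 and 15.
Cdkn2a upstream: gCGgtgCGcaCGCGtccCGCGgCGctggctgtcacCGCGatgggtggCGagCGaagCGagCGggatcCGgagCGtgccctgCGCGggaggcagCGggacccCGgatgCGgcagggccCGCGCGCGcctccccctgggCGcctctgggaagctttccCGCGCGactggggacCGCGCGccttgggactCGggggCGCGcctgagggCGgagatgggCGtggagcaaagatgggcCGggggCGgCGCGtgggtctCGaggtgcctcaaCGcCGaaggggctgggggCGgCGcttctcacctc
Cdkn2a downstream: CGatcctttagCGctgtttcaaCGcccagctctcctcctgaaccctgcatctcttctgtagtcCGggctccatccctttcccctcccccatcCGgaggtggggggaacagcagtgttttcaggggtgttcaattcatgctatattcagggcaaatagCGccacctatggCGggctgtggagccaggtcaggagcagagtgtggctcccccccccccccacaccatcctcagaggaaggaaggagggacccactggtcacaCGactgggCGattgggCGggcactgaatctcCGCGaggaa
Nkx2-3: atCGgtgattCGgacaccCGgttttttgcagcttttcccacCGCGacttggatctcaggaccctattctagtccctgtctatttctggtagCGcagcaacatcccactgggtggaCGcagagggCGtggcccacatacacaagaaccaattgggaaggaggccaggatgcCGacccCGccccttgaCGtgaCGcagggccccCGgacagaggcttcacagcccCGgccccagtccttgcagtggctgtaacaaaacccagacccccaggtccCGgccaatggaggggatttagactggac
The upstream window of Cdkn2a is the denser, with a CpG observed over expected ratio of 1.04, against 0.442 for the downstream window and 0.559 for Nkx2-3. Counts are per gene and do not show which start of Cdkn2a was used.

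A first window was found for 65 of the 79 members, or 82.3%, and their sequence was close to that of other expressed genes. The median CpG observed over expected ratio was 0.799 for members and 0.798 for 4236 protein-coding and lncRNA genes with at least 10 counts in each cKO library, 81.2% of which had a window. Over all 25748 first windows off the X and Y chromosomes it was 0.395. Windows with a GC content above 55% and a ratio above 0.65 made up 66.2% of the members (43 of 65), 61.3% of the expressed genes and 28.9% of all windows. The motif GGGCGG was present on either strand in 72.3% of members, 66.2% of expressed genes and 36.3% of all windows, and it overlaps the CG count since it holds a CG. CACGTG, which holds a CG too, was present in 12.3%, 11.3% and 7.23%. TATAAA was present in 15.4%, 8.52% and 14.2%, CCAAT in 30.8%, 40.1% and 37.8%, and TGACTCA in 3.08%, 3.82% and 5.22%. Among the 10 members with TATAAA were the 3 genes for keratin-associated proteins.

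Members on the cell surface or secreted numbered 8, and none had a count in WT. Il1r1, the receptor that carries the interleukin 1 signal, lay at 25.7, 9.42 and 11.1 CPM in cKO replicates 1 to 3. Its decoy Il1r2, which binds the cytokine without signalling, was far more abundant in all libraries, at 14277, 5329 and 8701 CPM in cKO and 4680 and 4494 CPM in WT. The coreceptor Il1rap lay at 16.2, 85.3 and 23.4 CPM in cKO, against 30.5 CPM and no count in WT replicates 1 and 2. Both relatives are named for their kinship with Il1r1 after their values were seen. Among 59 cytokine, chemokine and receptor genes with at least 10 counts in each cKO library, Il1r1 was the 1 member. This share was 1.69%, against 1.38% of all genes at that level. Genes set aside by name were left out of the 59 genes and of the members. At least 1 of those that met the limits belongs to this list, so its share is lower than without that exclusion. P2ry2, a receptor for extracellular nucleotides, lay at 16.5, 11.2 and 2.32 CPM in cKO.

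Raet1d and Raet1e are 2 close relatives, both ligands of the NKG2D receptor of NK and T cells. Raet1d had 30.8, 8.07 and 0.944 CPM in cKO replicates 1 to 3, while Raet1e had 2.94, 0.920 and 23.95 CPM. The library with the most of one was not that with the most of the other. Reads can be shared between them, and how the counting treated such reads is not given in the sources used here. They were the only 2 with counts among 5 genes of that family off the X and Y chromosomes, and lie 203 kb apart on chromosome 10.

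Tfpi, an inhibitor of blood clotting made by endothelium, lay at 16.1, 9.59 and 40.5 CPM in cKO. Clec1a, a lectin-like receptor, lay at 4.76, 4.53 and 15.9 CPM, and Col15a1, a collagen of basement membranes, at 3.13, 7.43 and 3.18 CPM. Both Tfpi and Clec1a were highest in cKO replicate 3. The 12 markers of fibroblasts and endothelium summed to 20.3, 51.5 and 211 CPM in cKO replicates 1 to 3, and to 31.1 and 109 CPM in WT. Of these, 8 had a count in some library and Tek, Kdr, Cdh5 and Pdgfra had none. Most of the sum in cKO replicate 3 came from the fibroblast markers Dcn and Col3a1, at 136 and 51.8 CPM. The endothelial markers Pecam1, Egfl7 and Vwf lay at 0, 5.94 and 10.6 CPM in cKO replicate 1. In cKO replicate 2 they lay at 0, 0 and 4.71 CPM, and in cKO replicate 3 at 4.72, 11.0 and 0 CPM. In WT, Vwf had 9.90 and 0 CPM, and Pecam1 and Egfl7 had no count. The part of such cells in the levels of these members was not tested.

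Keratin-associated proteins, which build the hair shaft, gave 3 members. Krtap22-2 lay at 23.9, 5.06 and 9.01 CPM in cKO replicates 1 to 3 with no count in WT. Krtap3-2 lay at 24.2, 4.89 and 14.9 CPM in cKO, with 1 count in WT replicate 1. Krtap19-9b lay at 1.502, 3.54 and 11.3 CPM in cKO with none in WT. Krtap22-2 and Krtap19-9b start 78.6 kb apart on chromosome 16. Of 55 Krtap genes in the table, 17, 17 and 12 had a count in cKO replicates 1 to 3, against 5 and 3 in WT. Their summed level was 168, 35.3 and 122 CPM in cKO, against 0.688 and 20.3 CPM in WT. Both the numbers and the sums include the 3 members, which were chosen for this contrast. The 3 members alone summed to 49.6, 13.5 and 35.2 CPM in cKO, against 0.0529 and 0 CPM in WT. The family values therefore restate that choice in part. These genes are similar in sequence, and reads may be shared between them.

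The summed level of keratinocyte markers was higher in each cKO library than in either WT library. The 15 markers of keratinocytes summed to 1009, 1273 and 1091 CPM in cKO and to 502 and 892 CPM in WT. None of the 15 was at 0 in every library, and all cKO libraries lay above both WT libraries for 4 of them, Krt10, Krtdap, Sfn and Perp. The other 11 overlapped between genotypes. Krt14 lay at 134, 215 and 144 CPM in cKO, against 89.5 and 235 CPM in WT, and Trp63 at 0, 9.77 and 0 CPM in cKO, against 0.529 and 18.5 CPM in WT. Among cKO libraries, replicate 2 had the highest keratinocyte sum and the lowest Krtap sum. Over all 9988 tested genes, all cKO libraries lay above both WT libraries for 886, or 8.87%. More cells of a type and more RNA per cell cannot be told apart in such bulk samples. The part of keratinocytes in the levels of the Krtap genes, and of other members that epithelium is known to express such as Wwtr1, was not tested.

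**Figure D4:**
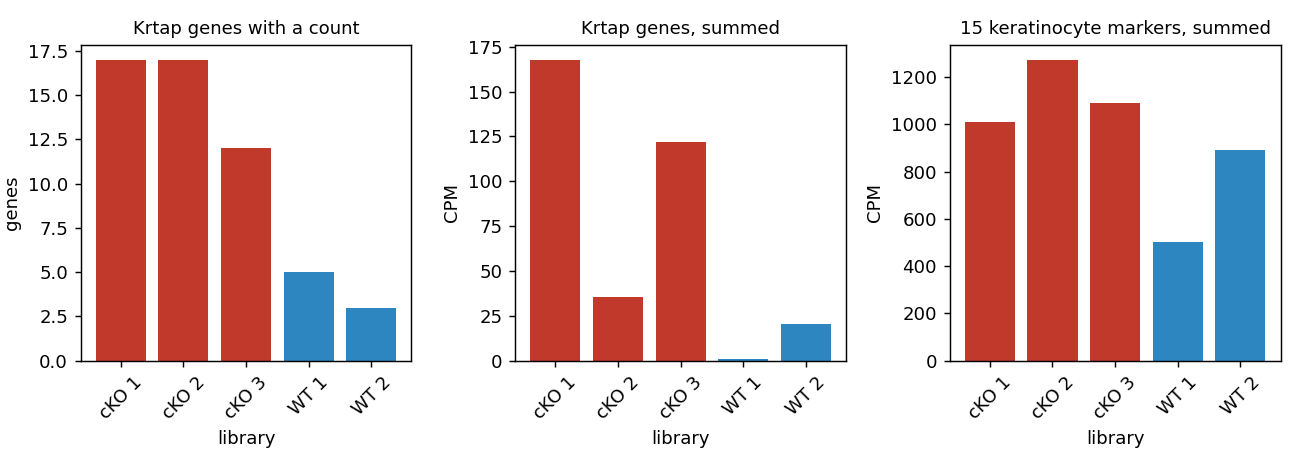
The panels give, for each library, the number of the 55 Krtap genes with a count, their summed level in CPM and the summed level of 15 keratinocyte markers in CPM. The cKO libraries (red) hold 12 to 17 Krtap genes at 35.3 to 168 CPM, against 5 and 3 genes at 0.688 and 20.3 CPM in the WT libraries (blue), and their keratinocyte sums lie above both WT libraries. The Krtap numbers and sums include the 3 members, which were chosen for this contrast.

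Several members act in the cell cycle and in DNA repair. Rfwd3, an E3 ligase of crosslink repair, had the highest mean of all members, at 11.3, 34.3 and 58.8 CPM in cKO and no count in WT. Chfr, a ubiquitin ligase of a mitotic checkpoint, lay at 22.3, 61.9 and 9.96 CPM in cKO, with 1 count in WT replicate 2. Its pooled ratio of 1425, high by the choice of members, had a 95% counting interval from 256 to 56321. Spidr, a scaffold of homologous recombination, lay at 9.95, 27.7 and 26.4 CPM in cKO, and the Fanconi anaemia protein gene Faap100 at 10.8, 3.50 and 16.8 CPM, with no count in WT for either. Spidr overlaps Cebpd, which was abundant in all libraries. The DNA repair list does not hold Rfwd3, Spidr or Faap100. None of its 7 genes with at least 10 counts in each cKO library was a member. Of its 36 tested genes 15 lay higher and 21 lower in cKO, against 5246 and 4742 of all tested genes. The median log2 fold change of the 36 was -0.36, against 0.06 over all tested genes. The cell cycle list, which does not hold Chfr, had 66 genes with at least 10 counts in each cKO library. Of these, 1 was a member, Cdkn2a (1.52%), against 1.38% of all genes at that level.

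Parts of the RNA machinery were also found. Dicer1, which cuts microRNA precursors, had 104, 13 and 27 counts in cKO replicates 1 to 3 and none in WT, and lay at 6.51, 0.460 and 2.32 CPM in cKO. Ago3, an Argonaute protein, lay at 9.01, 0.637 and 27.5 CPM in cKO with 2 counts in WT replicate 2. Both were lowest in cKO replicate 2. Other genes of the microRNA pathway were patchy in both genotypes: Ago1 had 137, 0 and 0 counts in cKO, against 14 and 67 in WT. Ago4 was seen in cKO replicate 3 and WT replicate 1 alone, with 227 and 105 counts. Ago2 was seen in every library, at 48.4, 32.6 and 16.4 CPM in cKO, against 3.02 and 9.49 CPM in WT. These relatives were picked after their values were seen.

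Srsf4, a splicing factor, was more even, at 7.20, 14.1 and 10.4 CPM in cKO, and Nars2, the asparaginyl-tRNA synthetase of mitochondria, lay at 21.9, 24 and 7.47 CPM. The helicase gene Ddx42 lay at 39.7, 4.85 and 7.38 CPM. None of these 3 had a count in WT. In the list of RNA processing and translation factors they were the members among 173 genes with at least 10 counts in each cKO library. Their share was 1.73%, against 1.38% of all genes at that level. The list does not hold Elp3, Ago3 or Dicer1. Elp3, the catalytic subunit of Elongator, lay at 2.00, 33.0 and 9.62 CPM in cKO and had none in WT.

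In the list of solute carriers, ion channels and ABC family genes, 92 had at least 10 counts in each cKO library. Of these, 5 were members, or 5.43%, against 1.38% of all genes at that level. They are 4 solute carriers and Abcf3. Slc41a2 and Slc41a3 belong to one small family of magnesium transporters. Slc41a3 was even, at 11.3, 12.3 and 8.24 CPM in cKO, with 1 count in WT replicate 1, and Slc41a2 lay at 10.4, 31.4 and 6.70 CPM in cKO with no count in WT. The third gene of the family, Slc41a1, was present in both genotypes, at 32.7, 21.7 and 25.2 CPM in cKO and 20.3 and 21.1 CPM in WT. So the family was not missing from WT as a whole. Slc39a14, an importer of zinc and iron, lay at 12.3, 4.81 and 5.58 CPM in cKO, and the mitochondrial carrier gene Slc25a45 at 3.82, 17.98 and 0.859 CPM, with no count in WT for either. Abcf3, an ABC family protein that does not cross membranes, lay at 12.1, 38.7 and 16.8 CPM in cKO and had none in WT.

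Car2, the carbonic anhydrase of the cytosol, had 295, 336 and 300 counts in cKO replicates 1 to 3 and none in WT. It lay at 18.5, 11.9 and 25.8 CPM in cKO. The list of mitochondrial proteins does not hold Nars2 or Slc25a45. Of its 179 genes with at least 10 counts in each cKO library, 1 was a member (0.559%), against 1.38% of all genes. This was Timmdc1, an assembly factor of respiratory complex I. It had 93, 109 and 138 counts in cKO, against 0 and 3 counts in WT. Of the 222 tested genes of that list 70 lay higher and 152 lower in cKO, with a median log2 fold change of -0.21.

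In signalling and the cytoskeleton, Ppm1j, a protein phosphatase, lay at 18.7, 27.6 and 23.9 CPM in cKO with 2 counts in WT replicate 1. The counts of its 3 cKO libraries stood within a factor of 1.48 after normalisation. Ccdc28a, a coiled-coil protein, was the most even member, at 17.8 ± 2.14 CPM in cKO (SD, n = 3) and no count in WT. The actin regulators Nckipsd, Dbn1 and Abi2 averaged 14.1 ± 6.53, 9.26 ± 2.34 and 8.90 ± 3.81 CPM in cKO (SD, n = 3) and had no count in WT. Ap1ar, an adaptor protein, lay at 6.26, 22.8 and 12.0 CPM in cKO, and Smim13, a small membrane protein, at 6.01, 20.2 and 6.44 CPM. The list of kinases and phosphatases does not hold Ppm1j. Of its 117 genes with at least 10 counts in each cKO library, 1 was a member (0.855%). This was Ppp4r1, at 1.001, 13.6 and 2.75 CPM in cKO. B9d1, of the ciliary transition zone, had 2 counts in WT replicate 1. It was the 1 member (7.69%) among 13 genes at that level in the list of cilium and centrosome genes, which does not hold Togaram1. Over all genes at that level the share was 1.38%.

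**Figure D5:**
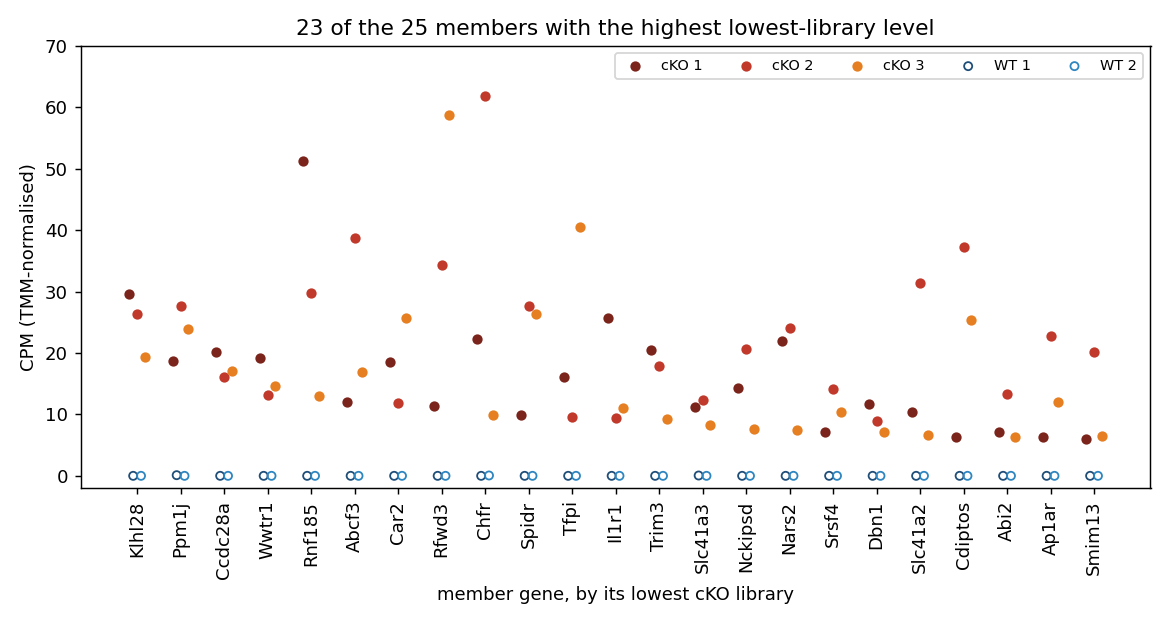
Points give the CPM of 23 of the 25 members with the highest level in their lowest cKO library, in cKO replicates 1 to 3 (filled) and WT replicates 1 and 2 (open). Genes such as Klhl28, Ppm1j, Ccdc28a and Wwtr1 hold the 3 cKO libraries close together, while Rnf185, Rfwd3 and Chfr spread widely, and the WT points lie at or next to 0.

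Most members code for proteins, 75 of 79, and 4 are lncRNAs. Of the 5717 genes with at least 10 counts in each cKO library, 5155 code for proteins and 60 are lncRNAs. The lncRNA 2310001H17Rik lay at 10.8, 1.24 and 37.1 CPM in cKO with no count in WT, and 1110019D14Rik at 7.51, 3.40 and 6.78 CPM. Cdiptos, named for its place opposite Cdipt and listed as protein-coding in RefSeq, lay at 6.38, 37.3 and 25.4 CPM in cKO and had none in WT. Members were found on 18 chromosomes, at most 7 on any of them. Only 2 pairs of neighbouring members start within 100 kb of each other, the Klhl28 and Krtap pairs above. Of the 152 distinct tested genes next to a member, 53.3% lay higher in cKO, against 52.5% of all tested genes. Another gene of the count table overlaps 17 members, and for 4 of them (Spidr, Iqgap2, Zcchc14 and Psd) that gene had at least 10 counts in every library. Such overlaps were not counted over all genes, so these numbers have no background. The members' gene length had a median of 3042 bases, against 2149 bases for the 5717 genes, which unlike the members also hold pseudogenes and small RNAs.

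The limits cut through a continuous range. Just inside the limit of 10 counts were 4932438H23Rik and Slc25a45, each with 10 counts in cKO replicate 3, and Nkx2-3 with 11 in cKO replicate 2. Just outside lay Fxyd7, with 119, 57 and 9 counts in cKO, Spink10 with 25, 9 and 18, and Cebpa with 26, 22 and 8, all with none in WT. Cebpa is a transcription factor of myeloid development. At the WT limit, Parp11 had 237, 644 and 15 counts in cKO, against 3 and 0 in WT, and Akt1s1, outside it, had 67, 562 and 63 counts in cKO, against 4 and 0 in WT. Fdxacb1 and Map2k7 also had 4 counts over both WT libraries.

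In the fit over all genes, edgeR's quasi-likelihood test called 0 of the 79 members at an adjusted p of 0.05, and 0% of all 9988 tested genes. All 79 had enough counts to be tested. At an unadjusted p of 0.05 the same test gave 66 members, against 210 genes higher in cKO over the whole table (2.1%). DESeq2 called 56 members higher in cKO, where it called 137 genes, or 1.52% of those with an adjusted p, in that direction. Since the members were chosen for this contrast, nothing is read from these counts. Reads were amplified and carry no molecular identifiers, so they may repeat a molecule. Floors and counting intervals cover counting error only. They pool the cKO libraries and leave out the spread among them. The rule capped the WT counts, so high ratios and intervals were set by the choice of members, and nothing is read from them.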

How the data were processed

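Counts deposited by the authors are raw read counts of genes, in 1 joint table and 5 single files that held identical values. Per the submitters' processing notes, featureCounts and the build mm10 were used. Aligner, versions, strand and the handling of shared reads are not stated there. Gene lengths are those deposited. The design text calls the libraries biological replicates, and no pair agreed within counting noise.

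Symbols, positions and promoter windows came from RefSeq (GRCm38.p6, the same coordinates as mm10). Of the identifiers 1904 found no match and stayed in the counts. The first listed window of a gene was used.

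The members, gene lists and tests were chosen with earlier results of these data known. Roles outside the lists were assigned after the members were seen. The fit over all genes was made in edgeR 4.0.16 (R 4.3.3) after filterByExpr (minimum count 10) and TMM, by a robust quasi-likelihood test and Benjamini-Hochberg adjustment at 0.05. Alternatives were DESeq2 1.42.0, RLE factors, other filters, a replicate block, title style as a term, other limits, scaled or thinned counts and each library left out. Fits were tested on simulated data. Log2 fold changes are cKO over WT. Counting intervals are exact binomial at 95%, on counts pooled over the libraries of each genotype. Named genes are Suz12, the 25 members with the highest lowest cKO level, up to 4 members per list, genes nearest the limits and neighbouring members. Other genes were picked with their values in view. Counts include 2 members that are not reported here by name. Figures used matplotlib 3.10.9 and Python 3.11.15.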

Additional observations from a re-analysis of the deposited data

How the results depend on the processing

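The count of 79 genes stayed within 1.5 times under all changes of limits or scaling except the limit of 50 counts in each cKO library. It was 62 with no WT count allowed and 110 with up to 10, 93 and 63 with at least 5 or 20 counts in each cKO library, 78 on counts scaled to the mean library size (76 of them members) and 83 in libraries thinned to the smallest total (73 of them members). With at least 50 counts in each cKO library it was 51. Leaving out 1 library eases the rule by itself, and gave 170 without cKO replicate 2, 213 without cKO replicate 1, 235 without cKO replicate 3, 286 without WT replicate 1 and 321 without WT replicate 2.

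Over all genes, DESeq2 called 191 (137 higher, 54 lower), 56 of them members, where edgeR called 0. A replicate block called 1 gene, Il10, which was set aside by name and so could not be a member. The deviations of same-numbered libraries had correlations of -0.02 and -0.00 over genes. With so few WT libraries, these values cannot decide whether same-numbered libraries were paired. Whether the numbers mark a pairing is not stated in the sources used here. The other edgeR settings called 0 genes and 0 members, also with each library left out, where a lone WT library is assumed to vary like the others. One of them, edgeR without its legacy setting, was added after seeing the data. Of 512 alternative fold changes of 52 named genes, 34 passed the threshold with DESeq2 alone and none changed sign. Apart from Suz12, these genes were named for counts in cKO and almost none in WT. Their sign was thus set by that choice and says nothing about the processing. Depth limits what a count of 0 means: 3 counts are 0.159 and 0.177 CPM in the WT libraries.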

Other observations

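The rule turned round, with at most 3 counts over the 3 cKO libraries and at least 10 in both WT libraries, gave 126 genes with the same exclusions, of 6852 genes with at least 10 counts in both WT libraries. It asks for 3 low libraries and 2 high ones, so this number and the 79 members are not on one scale.

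Receptors related to Il1r1 were detected in some libraries of both genotypes. Il1rl1 had 0, 365 and 0 counts in cKO replicates 1 to 3, against 70 and 0 counts in WT. Il18r1 had 0, 649 and 0 counts in cKO, against 41 and 0 in WT. Il1rl2, the receptor of interleukin 36, had 0, 184 and 267 counts in cKO, against 217 and 422 in WT.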
